A study of Mus musculus with 36 samples.

Results

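The genes described here are a set of transcription regulators that act in pairs and small families in T lymphocytes: the ID proteins Id1, Id2 and Id3, the E proteins Tcf3 and Tcf12, the HMG-box factors Tcf7 (TCF1) and Lef1, and the T lineage regulators Bcl11b and Satb1. They were chosen by gene symbol, as every probe of the array annotation that carries 1 of these 9 symbols. Of 25697 probes on the array 11 carried such a symbol, and they covered 7 of the 9 genes. Tcf3 and Tcf7 had no probe under their symbols and were not analysed here, so TCF1 itself was not measured. Of the 11 probes, 8 were above background on enough arrays to be tested (detection p-value under 0.01 on at least 4 of 36 arrays), and these 8 covered all 7 genes. The untested probes were a further probe of Id2 and 2 of Tcf12, each above background on 0 of 36 arrays.

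E proteins are basic helix-loop-helix factors that bind E box DNA as dimers and drive genes of the developing and resting lymphocyte. ID proteins share the helix-loop-helix but lack the basic region, so that an E protein bound by an ID protein cannot hold DNA. In T cells the balance of ID and E proteins is set by antigen receptor signals. TCF1 and LEF1 are HMG-box factors that partner with beta-catenin and Groucho-family corepressors and mark naive and memory T cells. BCL11B is a zinc finger factor needed for commitment to the T lineage, and SATB1 organises chromatin loops in thymocytes and T cells.

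RNA came from mouse T cells of 3 genotypes at 0, 1 and 4 h of stimulation, with 4 arrays in each of 9 groups. Malt1+/- cells (het here) have 1 working allele of Malt1, the scaffold and protease that links antigen receptors to NF-kB. Malt1PM/- cells (PM) carry a paracaspase-mutant allele over a null allele, and Malt1-/- cells (KO) carry none. All groups share the strain label B6.C-Tg(CMV-cre)1Cgn/J, which names a ubiquitously expressed Cre, so that Malt1 was not altered in T cells alone. Every group, het included, lacks at least 1 Malt1 allele, and there was no wild-type group. The labels describe both total T cells, left after beads removed B220+ and CD11b+ cells, and CD4+ T cells, and as stimuli both PMA with ionomycin and antibodies to CD3 and CD28, without saying which applies to these arrays. No age is given. The design text speaks of 3 biological replicates where 4 are listed per group, and nothing states that they are separate mice, so each p-value measures the spread between these samples, which may be technical. The sample titles carry the labels E3 to E6, each in all 9 groups, and replicates 1 to 4 here follow that order. The main fit leaves this label out, and an alternative fit uses the replicate number as a block.

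All values below are log2 signals after background correction and quantile normalization. A probe was called when its limma p-value, adjusted by Benjamini-Hochberg over all 10961 tested probes of the comparison, was under 0.05. Between 7713 and 10291 probes were above background per array, and the number of arrays limits the precision. Malt1 itself was lower in KO than in het at 0 h (-1.29, limma adjusted p = 0.0119), 1 h (at least 3.44-fold lower, adjusted p = 2.97e-06) and 4 h (-1.47, adjusted p = 5.34e-05). It was also lower in PM than in het at 1 h (-1.13, adjusted p = 0.0262) and 4 h (-1.20, adjusted p = 0.00195), with -0.86 at 0 h (adjusted p = 0.255). From 0 to 4 h the Malt1 signal rose in KO by 1.03 (adjusted p = 0.000436), and it was above background on 4 of 4 KO arrays at 4 h. At that time PM and KO did not differ past the threshold (0.28, adjusted p = 0.874). Whether the Malt1 probe covers the deleted region is not given in the sources used here. The lowest correlations with the other arrays of the same group were those of PM replicate 4 at 1 h (median r = 0.911) and 0 h (0.919), then KO replicate 4 at 1 h (0.943), PM replicate 4 at 4 h (0.957) and KO replicate 4 at 4 h (0.960). Among T cell markers at 0 h Cd3e lay between 11.52 and 11.97, Cd4 between 5.28 and 7.10 and Cd8b1 between 9.82 and 10.83, while the Cd8a probe was above background on 0 of 36 arrays. Transcripts of other cells were present too. At 0 h Cd79b, a B cell receptor subunit, lay between 8.25 and 10.24 and S100a8, a neutrophil gene, between 9.53 and 11.17, although the B cell factors Pax5 and Ebf1, the myeloid integrins Itgam and Itgax, and the NK genes Ncr1, Klrb1c, Klrk1, Gzma and Gzmb were above background on 0 of 36 arrays. Of the NK list Nkg7 (6.80 to 9.38 at 0 h) and Prf1 (8.94 to 11.07) were above background on 36 arrays and Klre1 on 20. At 4 h 6 of 11 tested B cell markers were called down in het, 5 in PM and 5 in KO, and of 11 myeloid markers 7, 6 and 8. Of all 10961 tested probes 2810, 2620 and 2317 were called down in het, PM and KO, and 51.3%, 46.7% and 41.8% in either direction. In bulk samples fewer cells of a type and less RNA per cell cannot be told apart.

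**Figure D1:**
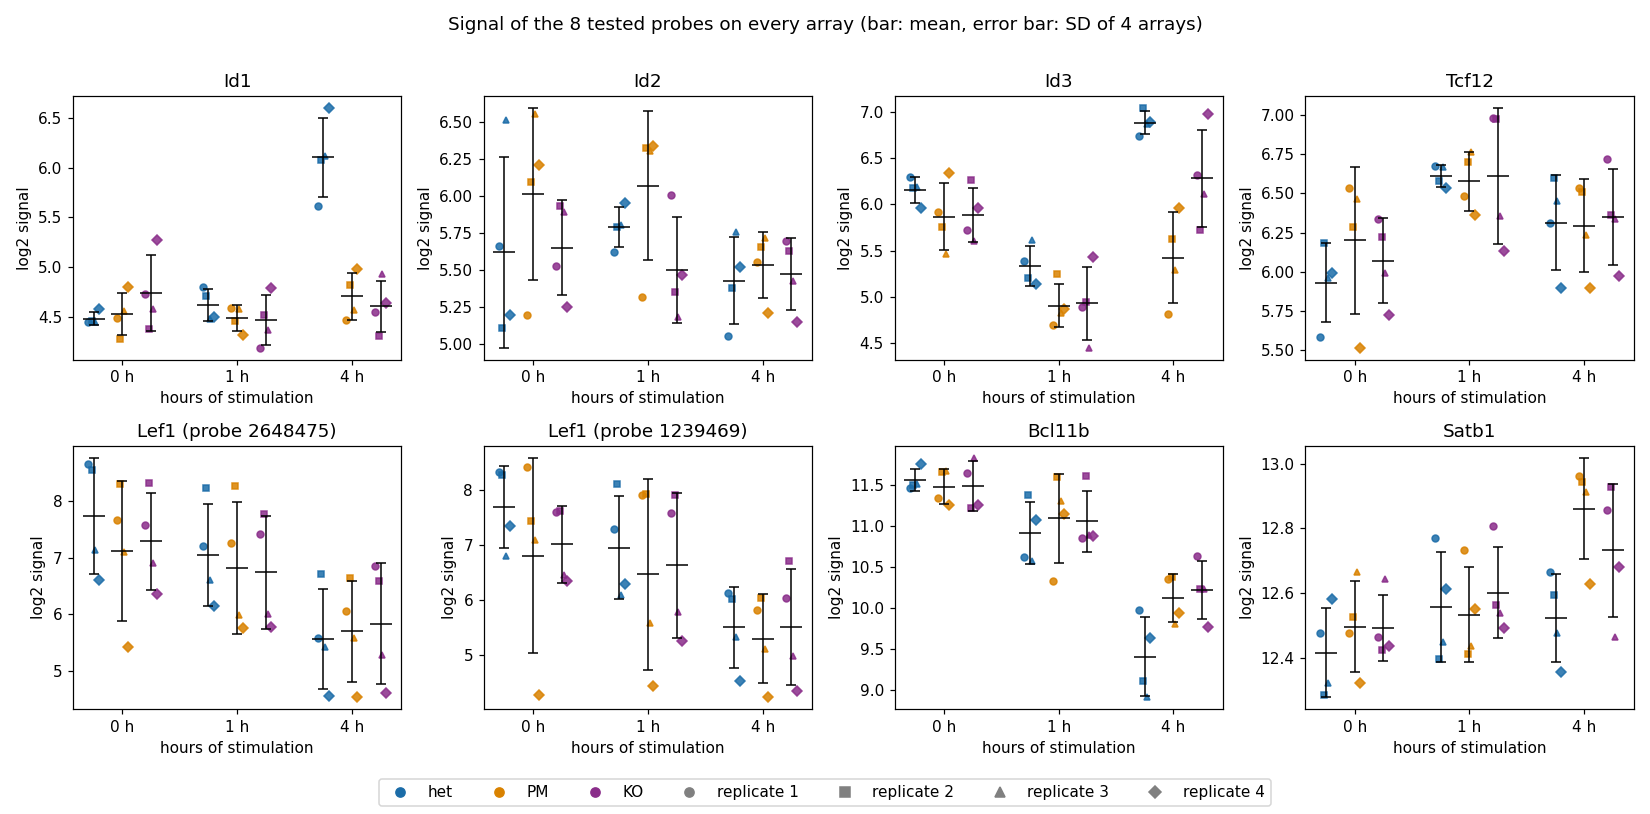
Log2 signal (vertical axis) of the 8 tested probes on each of the 36 arrays, by hours of stimulation (horizontal axis), genotype (colour) and replicate number (symbol), with the mean and SD of each group of 4. Id1 was at 5.62 to 6.60 in het at 4 h and at 5.27 or lower on every other array, and both Lef1 probes spread widely within each group.

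Id1 mRNA rose above background in het cells at 4 h, and on 3 of the other 32 arrays. Its log2 signal in het at 4 h was 5.62, 6.08, 6.12 and 6.60 in replicates 1 to 4, against 4.45, 4.46, 4.45 and 4.58 at 0 h. Every het array at 4 h lay above every other array of the study, and the probe was above background on 4 of 4 of them. Before stimulation no het array was above background, so that the rise was at least 2.47-fold (limma adjusted p = 4.74e-09). In PM cells at 4 h the 4 arrays read 4.47, 4.82, 4.57 and 4.98, with 1 of 4 above background, and in KO cells 4.55, 4.31, 4.93 and 4.65, with 0 of 4. These levels overlap those of the same genotypes at 0 h, which averaged 4.53 ± 0.21 (SD, n = 4) in PM and 4.74 ± 0.38 in KO.

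Id1 entered the test only because of the het arrays at 4 h, which are 4 of the 7 arrays where it was above background, so that a probe kept in this way had to differ there and its calls are given as a description. At 4 h Id1 was at least 2.28-fold lower in KO than in het (limma adjusted p = 1.13e-06). PM, with 1 of 4 arrays above background, was also called lower than het (adjusted p = 1.36e-05, and 2.36e-05 without the PM arrays of replicate 4). The size of that difference is set by the background, since the fitted value was -1.39 with background correction, -0.78 with an offset of 50 and -0.40 without correction. The difference of the 4 h changes was called for PM against het (adjusted p = 0.00915, and 0.0886 with only those groups fitted) and for KO against het (adjusted p = 0.000108). Their sizes cannot be read from these arrays, because the groups they rest on, other than het at 4 h, had 0 or 1 of 4 arrays above background. PM and KO were both near background at 4 h, so that no difference between them could be measured. At 1 h Id1 lay at 4.62 ± 0.16 in het, 4.49 ± 0.13 in PM and 4.47 ± 0.25 in KO, near background in all genotypes.

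Id3, the ID protein most tied to antigen receptor signalling in lymphocytes, followed another course. It fell within 1 h in all genotypes, and at 4 h its level was lower in PM than in het. No difference in its 4 h change between genotypes passed (limma adjusted p from 0.264 to 0.889). In het cells the 4 arrays read 6.29, 6.17, 6.19 and 5.97 at 0 h, 5.38, 5.20, 5.61 and 5.14 at 1 h, and 6.74, 7.04, 6.87 and 6.89 at 4 h. The ranges of the 3 times do not overlap, so that Id3 in het dipped and then stood above its resting level on every array. In PM cells the means were 5.87 ± 0.36 at 0 h (SD, n = 4), 4.91 ± 0.24 at 1 h and 5.42 ± 0.49 at 4 h, and in KO cells 5.89 ± 0.29, 4.93 ± 0.40 and 6.28 ± 0.52. At 1 h the probe was above background on 4 of 4 het arrays, 1 of 4 PM arrays and 3 of 4 KO arrays.

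The fall of Id3 at 1 h was 0.82 ± 0.23 (log2, SE) in het (-0.82, limma adjusted p = 0.00868), 0.96 in PM (-0.96, adjusted p = 0.00285) and 0.96 in KO (-0.96, adjusted p = 0.00244), with no overlap between times in any genotype. Without background correction these falls were -0.27 in each genotype, and with an offset of 50 they were -0.50, -0.53 and -0.53, all still called. At 4 h het stood above rest by 0.73 ± 0.23 (adjusted p = 0.00895), or by 0.33 without background correction. PM was at -0.44 from its rest (adjusted p = 0.122) and KO at 0.40 (adjusted p = 0.18), neither past the threshold. From 1 to 4 h the change of Id3 was 1.55 in het (adjusted p = 1.32e-06), a rise, and likewise 1.35 in KO (adjusted p = 1.75e-05). In PM the step was 0.52 (adjusted p = 0.0722, and 0.0415 with the replicate number as a block).

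At 4 h the PM arrays of Id3 read 4.82, 5.63, 5.29 and 5.96, all below the 4 het arrays. The difference of PM from het was -1.46 ± 0.23 (log2, SE, limma adjusted p = 0.000236), a 2.75-fold lower signal, -0.56 without background correction, -0.97 with an offset of 50, and -1.64 without PM replicate 4 (adjusted p = 8.97e-05). The KO arrays read 6.32, 5.73, 6.11 and 6.98, so that KO overlapped both het and PM. KO differed from het by -0.60 (adjusted p = 0.128, and 0.0225 without KO replicate 4, the array that read 6.98). PM was lower than KO by 0.86 (-0.86, adjusted p = 0.0433), a call lost without any of PM replicates 1 and 3 and KO replicates 1, 3 and 4 (adjusted p from 0.0606 to 0.252), and lost without replicate 4 of every group (adjusted p = 0.0625). It was also lost with no filter on dim probes, with only these groups fitted and with median scaling (adjusted p = 0.0908, 0.364 and 1). The 4 h change of Id3 was smaller in PM than in het by 1.17 (-1.17, adjusted p = 0.264), which did not pass. When arrays were scaled to a common median the PM against het difference was -1.47 with an adjusted p of 0.0809, and the calls at 1 h in het and PM and at 4 h in het were lost as well (adjusted p = 0.126, 0.0765 and 0.339).

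The DNA upstream of the start of Id3 is shown because Id3 differed by genotype, beside that of its relative Id2 and of Lef1, which fell with time. Each run is the 250 bases before the listed start from the RefSeq promoter table (GRCm38.p6), 5′ to 3′ on the strand of the gene, with matches on either strand to an NF-kB-like motif (GGG and CC with 5 bases of any kind between them) in capitals. For Lef1, which has several listed starts, the window next to the gene's annotated start is shown.
Id3, chr4:136143572-136143821, plus strand: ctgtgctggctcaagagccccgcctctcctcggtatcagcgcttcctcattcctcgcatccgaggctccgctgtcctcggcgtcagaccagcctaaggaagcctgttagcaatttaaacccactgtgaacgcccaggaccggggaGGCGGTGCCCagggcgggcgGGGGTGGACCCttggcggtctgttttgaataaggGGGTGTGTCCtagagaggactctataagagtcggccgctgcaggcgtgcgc
Id2, chr12:25096093-25096342, minus strand: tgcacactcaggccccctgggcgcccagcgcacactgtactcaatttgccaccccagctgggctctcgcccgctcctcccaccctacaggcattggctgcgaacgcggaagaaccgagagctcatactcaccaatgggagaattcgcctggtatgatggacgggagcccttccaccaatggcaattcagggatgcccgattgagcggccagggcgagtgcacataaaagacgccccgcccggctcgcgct
Lef1, chr3:131110047-131110296, plus strand: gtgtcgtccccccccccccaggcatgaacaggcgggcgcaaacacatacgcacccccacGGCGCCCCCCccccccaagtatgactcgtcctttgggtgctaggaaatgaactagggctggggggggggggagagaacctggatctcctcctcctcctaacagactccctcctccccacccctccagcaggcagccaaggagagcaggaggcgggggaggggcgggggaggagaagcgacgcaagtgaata
The Id3 window held 4 such matches, of which a pair overlap in the long run of capitals, the Lef1 window held 1 and the Id2 window held 0. Of the windows not shown, that of Bcl11b held 0, those of Tcf12 up to 3 each and those of Satb1 up to 2. Id1 had no window in that promoter table. Whether matches to the NF-kB-like letters go with genotype was not tested. These letters are loose and occur in 45.8% of 32851 promoter windows of the same length. The E box CANNTG was at 1 place in the Id2 window and at 1 in the Lef1 window and at 0 in Id3, beside 66.2% of all windows. The TCF/LEF letters CTTTGAT and CTTTGTT (8.06% of windows) and the EGR letters GCGNGGGCG (4.70%) matched in none of these 3 windows. A match is a description of letters and does not show that a factor bound there.

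Id2, the ID protein of effector T and innate lymphoid cells, did not pass the threshold in any of the 24 comparisons. Its tested probe ranged from 5.05 to 6.56 over the 36 arrays and was above background on 35. The highest group was PM at 1 h, with 5.32, 6.32, 6.30 and 6.34, and the lowest het at 4 h, with 5.05, 5.38, 5.76 and 5.52. Each gap between neighbouring groups was smaller than the larger of their SDs. The 4 h change was -0.19 in het (95% interval -0.75 to 0.37), -0.48 in PM (-1.04 to 0.08) and -0.18 in KO (-0.74 to 0.38). In PM the change from 0 to 4 h reached -0.75 without PM replicate 1 at 0 h (limma adjusted p = 0.0234, against 0.155 with it). The other Id2 probe stayed between 4.20 and 5.05 and was not above background on any array, so that it neither adds to nor opposes these values.

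Tcf12, which encodes the E protein HEB, was the only E protein with a probe among the chosen genes. It was above background on 36 of 36 arrays and rose in het cells at 1 h, from 5.58, 6.18, 5.96 and 5.99 to 6.67, 6.58, 6.67 and 6.53. The ranges do not overlap, and the rise was 0.68 ± 0.21 (log2, SE), or 1.61-fold (limma adjusted p = 0.0173, and 0.0763 without het replicate 1 at 0 h, the lowest array). In KO cells the 1 h change was 0.54 (adjusted p = 0.0637, and 0.00824 with the replicate number as a block), and in PM cells 0.37 (95% interval -0.06 to 0.81). Without background correction the rise in het was 0.28. At 4 h the change was 0.38 in het (adjusted p = 0.137, and 0.0366 with the block), 0.09 in PM and 0.28 in KO. No genotype difference in Tcf12 passed. The 2 untested Tcf12 probes stayed between 4.11 and 4.49.

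**Figure D2:**
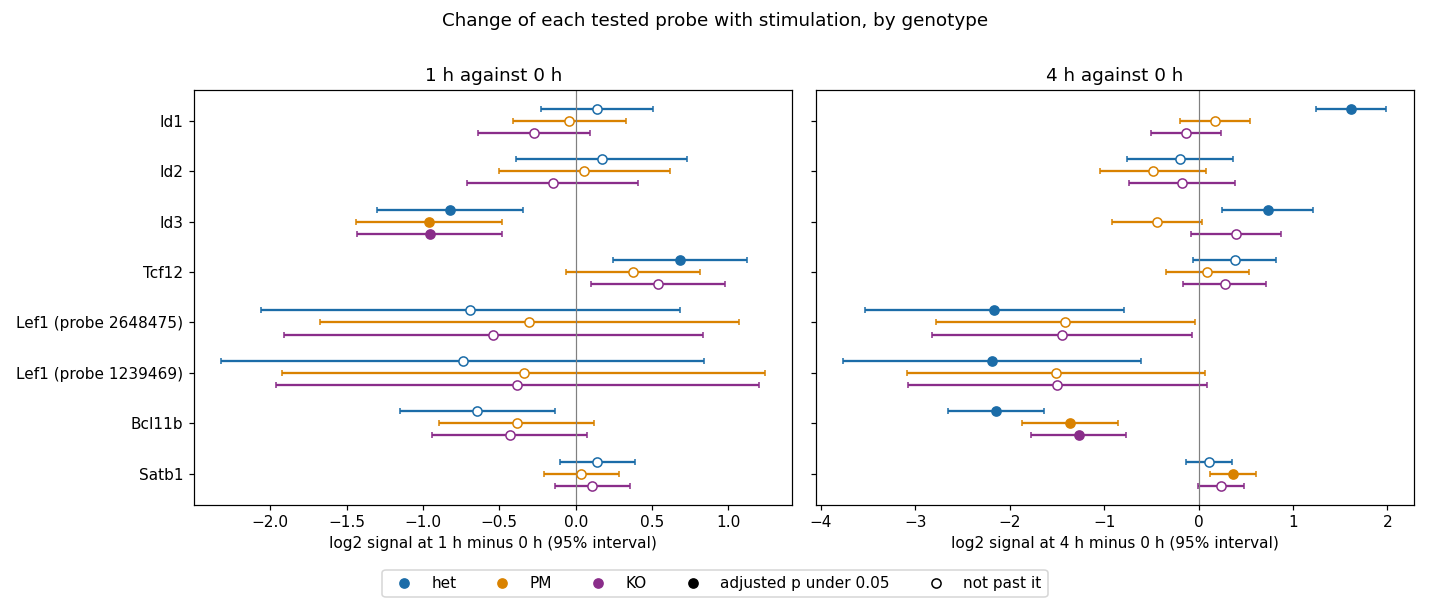
Change of each tested probe from 0 h to 1 h (left) and to 4 h (right), on the log2 scale with 95% intervals, for het, PM and KO. Filled points passed an adjusted p of 0.05; at 4 h Id1 and Id3 were called up in het, and Bcl11b was called down in all 3 genotypes (-2.15, -1.36 and -1.27).

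Lef1 mRNA fell with stimulation, and it also differed widely between replicate numbers. Its 2 probes are described separately. On probe 2648475 het cells read 8.65, 8.55, 7.13 and 6.61 in replicates 1 to 4 at 0 h, 7.20, 8.23, 6.60 and 6.15 at 1 h, and 5.59, 6.71, 5.43 and 4.56 at 4 h. The groups overlap between 0 and 4 h because replicate 2 stayed high and replicate 4 began low, but within each number the 4 h array was the lowest. On probe 1239469 het cells read 8.33, 8.27, 6.79 and 7.34 at 0 h and 6.13, 6.01, 5.33 and 4.52 at 4 h, without overlap. The fall in het at 4 h was 2.16 ± 0.67 (log2, SE) on the first probe (-2.16, 4.48-fold, limma adjusted p = 0.00714) and 2.19 ± 0.77 on the other (-2.19, 4.55-fold, adjusted p = 0.0177). The second call was lost without het replicate 1 or 2 at 0 h or het replicate 4 at 4 h (adjusted p = 0.0531, 0.0506 and 0.0646), and both were lost with median scaling (adjusted p = 0.0592 and 0.0524). Without background correction the changes were -1.05 and -1.02, both called.

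In PM and KO cells the 4 h differences of Lef1 were -1.41 and -1.45 on probe 2648475 (limma adjusted p = 0.0843 and 0.0832). On probe 1239469 they were -1.51 and -1.498 (adjusted p = 0.111 and 0.122), so none of these passed in the main fit. With the replicate number as a block all of them passed, at adjusted p = 1.10e-06 and 9.19e-07 on probe 2648475. On probe 1239469 the blocked values were 0.000852 and 0.00107. In these comparisons same-numbered pairs did not all correlate over 0.1. Within replicate numbers the 4 h array was below the 0 h array in 4 of 4 numbers in each genotype and on each probe. The differences ran from -1.66 to -0.89 in PM and from -1.73 to -0.71 in KO on probe 2648475. On probe 1239469 they ran from -2.615 to -0.05 in PM and from -2.01 to -0.92 in KO. The -0.05 was that of PM replicate 4, and 3 of 4 PM arrays were above background on that probe at 0 h. At 4 h each Lef1 probe was above background on 3 of 4 arrays in every genotype, so the sizes of the falls depend partly on the background. PM replicate 4 lay at 4.27, 4.44 and 4.23 at 0, 1 and 4 h on probe 1239469, below every other array of its groups. Without the PM arrays of replicate 4 the PM change was -1.998 on that probe (adjusted p = 0.0221) and -1.59 on the other (adjusted p = 0.0646), and the KO change on probe 1239469, which shares the fitted spread, had an adjusted p of 0.0471.

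Where same-numbered arrays deviated together, blocking on the number narrowed the errors of Lef1. On probe 2648475 the SE went from 0.67 to 0.21, and the step from 1 to 4 h was called in het (-1.47, adjusted p = 4.73e-07, against 0.0687 without the block), in PM (-1.11, 4.72e-05 against 0.192) and in KO (-0.90, 0.000598 against 0.309). The change at 1 h was -0.69 in het (adjusted p = 0.0108 with the block, 0.515 without) and -0.54 in KO (0.0446 and 0.624), but PM did not pass with the block (-0.30, 0.303), nor did probe 1239469 at 1 h in het, PM or KO (0.123, 0.539 and 0.456). On probe 1239469 the step from 1 to 4 h gave blocked adjusted p-values of 0.00122, 0.00856 and 0.0127 in het, PM and KO, against 0.124, 0.236 and 0.273. No genotype comparison of Lef1 passed at any time.

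Lef1 levels differed by replicate number across all groups. Over the 9 arrays of each number probe 2648475 averaged 7.14, 7.71, 6.22 and 5.53 for replicates 1 to 4, and probe 1239469 averaged 7.23, 7.33, 5.91 and 5.22. The range of 2.17 on the first probe was exceeded by 1.07% of tested probes, where the median probe ranged over 0.35. Of the 129 probes with a range at least as large as that of probe 1239469, 113 (87.6%) had the same order, replicate 2 highest, then 1, 3 and 4, beside 14.8% of all tested probes. Among probes of Actb, a gene chosen for this check after its values were seen, some moved by number in opposite ways: probe 2617433 averaged 10.31, 11.03, 9.60 and 7.88 over replicates 1 to 4, and probe 2846865 averaged 5.995, 4.66, 9.28 and 12.61. Probes 2588055 and 1377923 were also highest in replicate 4, with ranges of 7.69 and 5.19. Probe 2698799 of the same gene stayed level, at 12.32, 12.40, 12.25 and 12.47 (range 0.22). The B cell marker level by number was 6.79, 6.22, 7.14 and 7.405, and that of T cell markers 10.58, 10.62, 10.45 and 10.29. The part of RNA quality, cell content or processing day in these levels was not tested. Id1, Id2, Id3, Bcl11b and Satb1 ranged over 0.17 to 0.39 between numbers and Tcf12 over 0.49.

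**Figure D3:**
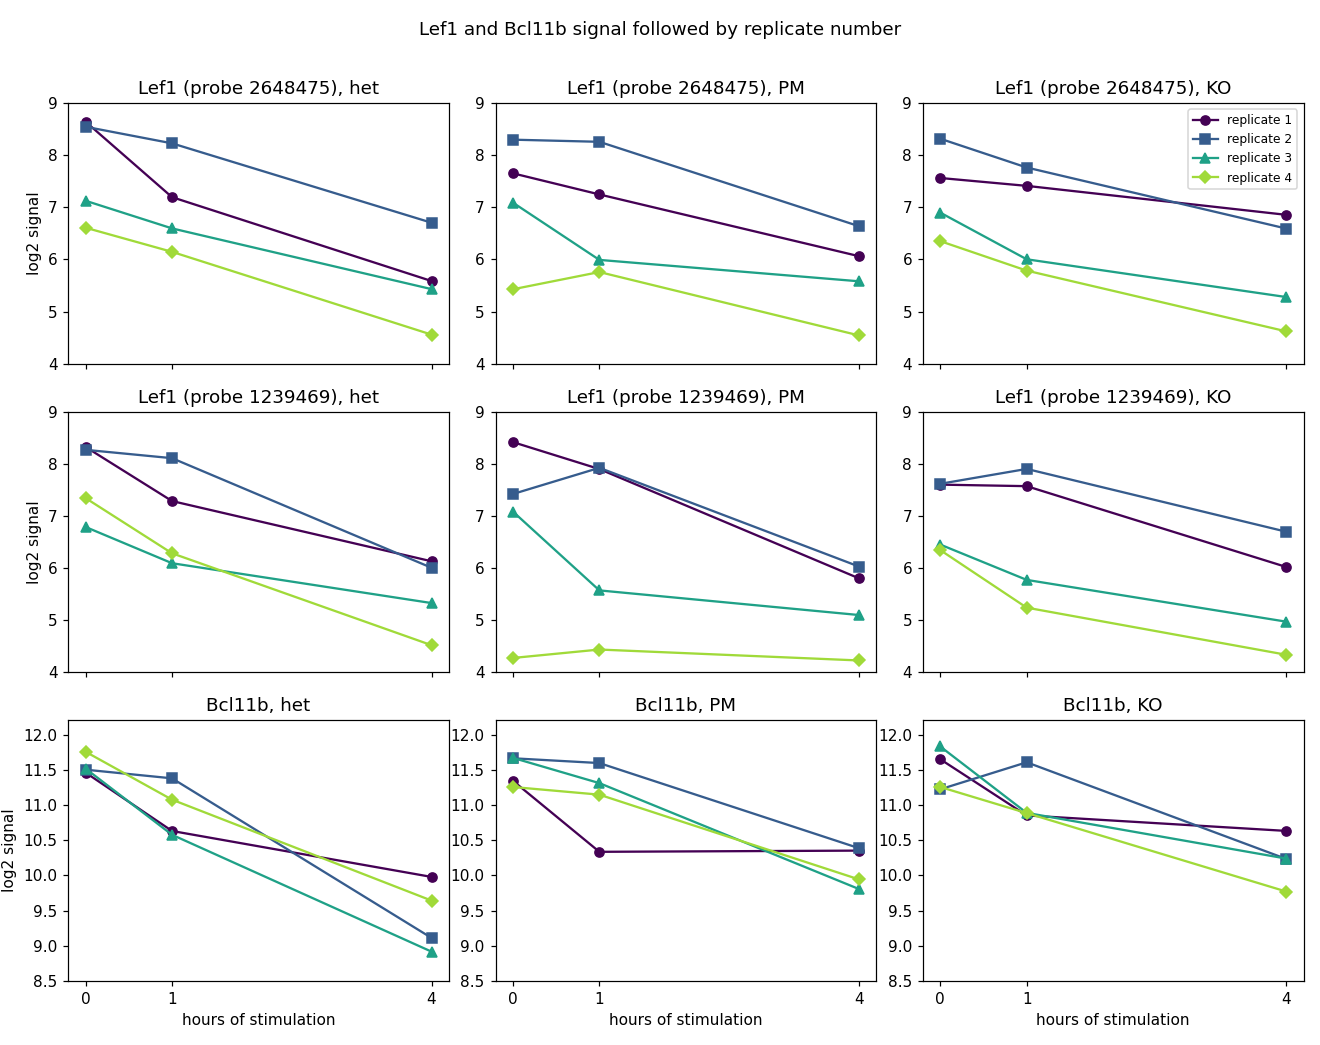
Log2 signal of both Lef1 probes and of Bcl11b (vertical axes) against hours of stimulation, each line following 1 replicate number within a genotype. Lef1 lines of replicates 1 and 2 mostly run above those of replicates 3 and 4, and every line ends lower at 4 h than they began.

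Bcl11b was among the bright probes at rest and fell in every genotype by 4 h. In het cells it read 11.46, 11.50, 11.52 and 11.76 at 0 h and 9.98, 9.11, 8.92 and 9.64 at 4 h. In PM cells it went from 11.34, 11.66, 11.67 and 11.26 to 10.35, 10.39, 9.81 and 9.94, and in KO cells from 11.65, 11.22, 11.83 and 11.26 to 10.63, 10.23, 10.24 and 9.77. In each genotype all 4 arrays at 4 h lay below all 4 at 0 h. Bcl11b fell by 2.15 ± 0.25 in het (log2, SE; 4.43-fold, limma adjusted p = 9.03e-09), 1.36 in PM (-1.36, 2.57-fold, adjusted p = 2.84e-05) and 1.27 in KO (-1.27, 2.41-fold, adjusted p = 8.80e-05). T cell markers moved as well: 7 of 13 fell and 3 rose in het, 7 fell and 4 rose in PM, and 6 fell and 5 rose in KO, with list medians of -0.77, -0.56 and -0.26, where 51.3%, 46.7% and 41.8% of all tested probes were called.

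At 1 h the change of Bcl11b in het was -0.64, with groups that do not overlap (limma adjusted p = 0.0549), so it did not pass in the main fit. It was called under 7 of 13 other settings: 0.0388 with the replicate number as a block, and 0.00539 to 0.0494 under 6 more. Of 8 runs without 1 array, 1 gave the call (0.0226 without het replicate 2 at 1 h). The highest adjusted p over all these alternatives was 0.449. In PM the change at 1 h was -0.39 and in KO -0.43, and neither passed. Between 1 and 4 h the change was -1.504 in het (limma adjusted p = 5.69e-06), -0.97 in PM (adjusted p = 0.00167, and 0.227 with median scaling) and -0.84 in KO (adjusted p = 0.00668, 0.306 with median scaling and 0.0537 without replicate 4 of every group).

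The level of Bcl11b at 4 h was lowest in het. KO stood 0.81 ± 0.25 (log2, SE) above het, 1.75-fold (limma adjusted p = 0.039), with overlap between the groups. That call was lost without het replicate 2 or 3 or KO replicate 1, 2 or 3 (adjusted p from 0.0771 to 0.184), and also with median scaling, with no filter on dim probes, without background correction and with only these groups fitted (adjusted p from 0.051 to 1). PM stood 0.71 above het (adjusted p = 0.181). The 4 h change itself was smaller in KO by 0.88 (95% interval 0.16 to 1.59, adjusted p = 0.296) and in PM by 0.79 (0.07 to 1.503, adjusted p = 0.978), neither past the threshold. Beside this, 5 of 13 T cell markers were higher and 1 was lower in KO than in het at 4 h, among them Cd3g (0.91, adjusted p = 1.75e-06), Cd3d (0.80, adjusted p = 3.01e-06) and Cd28 (1.18, adjusted p = 2.32e-05), with Cd3e (0.71) and Cd2 (0.77) also higher and Thy1 lower (-1.04, adjusted p = 0.00178). In PM against het Cd2 was higher (0.64, adjusted p = 0.0277). Their part in the Bcl11b difference was not tested.

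Satb1 lay between 12.29 and 12.96 on all arrays. The only calls were in PM cells, from 12.48, 12.52, 12.66 and 12.32 at 0 h to 12.96, 12.94, 12.91 and 12.63 at 4 h. The groups overlap by 1 array, since replicate 4 at 4 h lay below replicate 3 at 0 h, but each number was higher at 4 h. The rise was 0.37 ± 0.12 (log2, SE; 1.29-fold, limma adjusted p = 0.012) over 0 h and 0.33 over 1 h (adjusted p = 0.0253). With only these groups fitted the adjusted p-values were 0.0591 and 0.108, and with median scaling 0.287 and 0.249. The step from 1 h was also lost without PM replicate 2 or 3 at 1 h or PM replicate 1, 2 or 3 at 4 h (adjusted p from 0.0592 to 0.0747). The 4 h change was 0.11 in het and 0.24 in KO, and the difference of PM from het at 4 h was 0.34 (adjusted p = 0.188).

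Counted over the 8 probes, 2 rose and 3 fell in het at 4 h, where 51.3% of all tested probes were called. In PM 1 rose and 1 fell (background 46.7%), and in KO 0 rose and 1 fell (background 41.8%), with 2 of 8 in KO at an unadjusted p under 0.05. Id1, tested only through het at 4 h, is among the probes counted for that group. At 1 h 1 rose and 1 fell in het (24.7%), 1 fell in PM (20.4%) and 1 fell in KO (24.6%). From 1 to 4 h 2 rose and 1 fell in het (48.4%), 1 rose and 1 fell in PM (43.1%) and 1 rose and 1 fell in KO (40.1%). In the fit with the replicate number as a block 4 of 8 probes were called in het at 1 h (34.3% of all probes in that fit) and 3 in KO (34.5%). At 4 h it was 6 in het (60.1%), 4 in PM (55.3%) and 3 in KO (50.9%). From 1 to 4 h it was 5, 5 and 4 in het, PM and KO (57%, 52.2% and 48.7%). The median change over the 8 probes in het at 4 h was -0.04 beside 0.01 over all tested probes.

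Between genotypes calls were rare on the array at 0 and 1 h. In limma 0 of 8 member probes were called for PM against het (0.073% of all probes), KO against het (0.0365%) and PM against KO (0.0547%) at 0 h, and 0 of 8 at an unadjusted p under 0.05. At 1 h 0 of 8 were called for PM against het (0.146%), KO against het (0.0365%) and PM against KO (0.0182%), with 0, 0 and 1 of 8 at an unadjusted p under 0.05. At 4 h 2 of 8 were lower in PM than in het, Id1 and Id3, where 2.14% of all probes were called. In KO against het Id1 was lower and Bcl11b higher (7.37%), and in PM against KO Id3 was lower (2.10%). For the difference of the 4 h changes Id1 was called in PM against het (0.119% of all probes) and in KO against het (1.51%), and 0 of 8 in PM against KO (0.201%, with 1 of 8 at an unadjusted p under 0.05). For the 1 h changes 0 of 8 were called in each of the 3 contrasts, as was 0% of all probes, with 0 of 8 at an unadjusted p under 0.05. Comparisons with het share the het arrays. Id1 was tested only through het at 4 h, so its calls in this paragraph are a description and cannot be weighed against these shares.

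**Figure D4:**
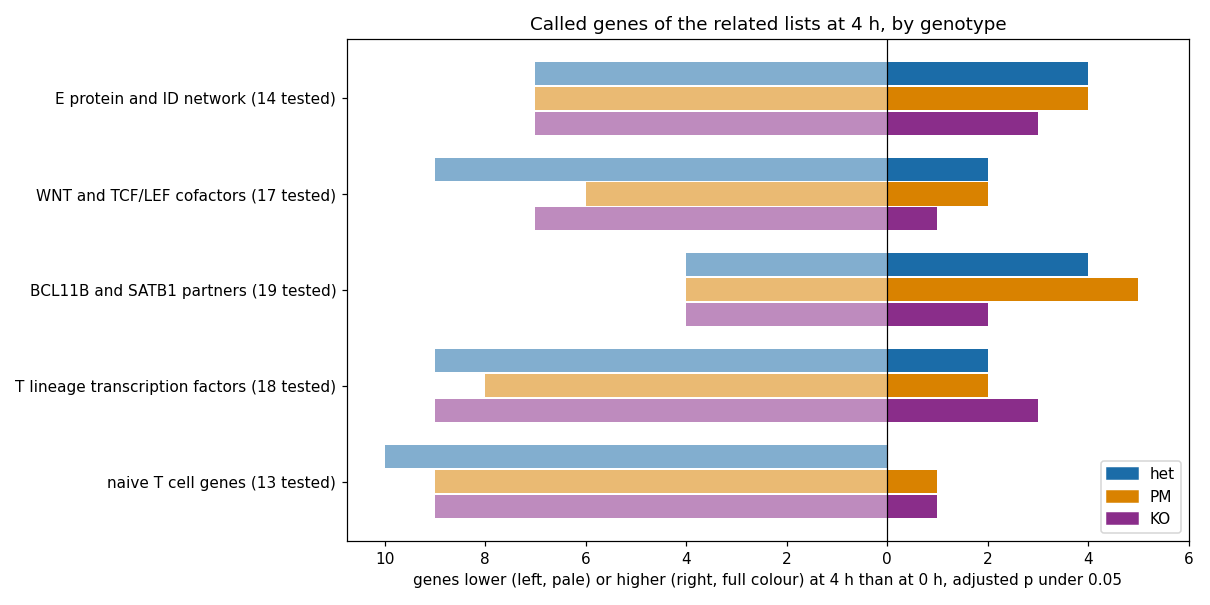
Genes of the 5 related lists called lower (left) or higher (right) at 4 h than at 0 h in het, PM and KO; the horizontal axis counts genes and the number tested stands beside each list. Naive T cell genes were called down in 10 of 13 in het and 9 of 13 in PM and in KO, and the E protein and ID list in 7 of 14 in each genotype. Of all 10961 tested probes 2810, 2620 and 2317 were called down in het, PM and KO.

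Genes around these factors were described with 5 lists, taking 1 probe a gene; at 4 h 51.3%, 46.7% and 41.8% of all tested probes were called in het, PM and KO, in het about equally up (2816) and down (2810). In the E protein and ID network, without the members, 14 genes were tested and in het at 4 h 4 rose and 7 fell, with a median of -0.70 beside 0.01 over all tested probes. Bhlhe40, a helix-loop-helix repressor of activated T cells, rose by 4.33 (limma adjusted p = 8.71e-13), Gfi1, a zinc finger repressor, by 3.02 and the E box repressor Zeb1 by 0.79. Dtx1, a Notch pathway ubiquitin ligase, changed by -3.81 (adjusted p = 2.92e-16), Dgka, a diacylglycerol kinase that damps receptor signals, by -2.95 and the cytokine signal inhibitor Socs3 by -2.25. Bhlhe40 was above background on 1 of 4 het arrays at 0 h and Dtx1 on 1 of 4 at 4 h, so the sizes of these changes depend on the background. In PM 4 rose and 7 fell, and in KO 3 rose and 7 fell. At 4 h Dgka was higher in KO than in het (1.41, adjusted p = 2.22e-06) and lower in PM than in KO (-0.85, adjusted p = 0.00521), its 4 h change differed in KO from het by 1.44 (adjusted p = 0.00115), and Socs3 was higher in PM than in het (1.26, adjusted p = 0.00452).

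Of 17 tested WNT and TCF/LEF cofactors 2 rose and 9 fell in het at 4 h (median -0.63), 2 rose and 6 fell in PM, and 1 rose and 7 fell in KO. Bcl9l, a beta-catenin coactivator, changed by -3.18 (limma adjusted p = 6.49e-12), the Groucho-related Tle5 by -2.72 and the WNT feedback gene Axin2 by -2.18, while Dvl1, a WNT signal transducer, and the corepressor Tle1 rose by 0.98 and 0.93. Tle5 was higher at 4 h than in het in PM (0.59, adjusted p = 0.027) and in KO (0.54, adjusted p = 0.0224), and the HMG-box gene Hbp1 was higher in KO (0.74, adjusted p = 0.00782).

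Among 19 tested chromatin partners of BCL11B and SATB1 4 rose and 4 fell in het at 4 h (median 0.12), 5 rose and 4 fell in PM, and 2 rose and 4 fell in KO. The SWI/SNF ATPase Smarca2 changed by -2.30 (limma adjusted p = 4.90e-14), and the NuRD subunits Mta3 and Hdac1 by -1.57 and -1.05. Smarcc1, the deacetylase Hdac2 and the ATPase Smarca4 rose by 1.22, 0.82 and 0.46. Smarca2 was higher at 4 h than in het in both PM (0.70, adjusted p = 0.0065) and KO (0.61, adjusted p = 0.00864), and Mta3 was higher in KO than in het (0.71, adjusted p = 0.00316) and lower in PM than in KO (-0.65, adjusted p = 0.0189).

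Of 18 other T lineage transcription factors 2 rose and 9 fell in het at 4 h (median -0.56), 2 and 8 in PM, and 3 and 9 in KO. Klf2 and Klf3, factors of quiescence, changed by -2.72 and -2.58 and the ETS factor Fli1 by -2.23, while Bcl6 and Runx1 rose by 1.00 and 0.63. At 4 h Ets1 (0.87, limma adjusted p = 0.00352) and Foxo1 (0.65, adjusted p = 0.0284) were higher in KO than in het, Klf3 was higher in PM than in het (1.12, adjusted p = 0.00895), and Gata3, the T helper 2 factor, was higher in PM than in KO (1.39, adjusted p = 0.0288). Of 13 tested naive T cell genes 10 fell and 0 rose in het (median -2.11), led by Igfbp4 (-5.11), Pik3ip1 (-4.02) and Nsg2 (-3.64), and 9 fell and 1 rose in PM and in KO. Ly6c1 was higher in PM than in het at 4 h (2.18, adjusted p = 0.00012), and Cd27 was higher in KO than in het (0.77, adjusted p = 0.000345). Actn1 (-1.06, adjusted p = 0.0108) and Igfbp4 (-0.85, adjusted p = 0.0143) were lower in KO than in het, and Igfbp4 was higher in PM than in KO (0.88, adjusted p = 0.0261).

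The patterns of the members over the 9 group means were compared by Pearson correlation, as a description with no test, since the means share the processing of the arrays and a time course that much of the array follows. Bcl11b and Lef1 were the most alike pair among the members (r = 0.947), and Lef1 and Satb1 ran against each other (-0.732). For Bcl11b and Id1 r was -0.747. Id1 was above background on 4 of 4 arrays in het at 4 h and on 0 or 1 of 4 in every other group. All correlations of Id1 given here therefore rest on that 1 group. Over all tested genes the closest to Bcl11b were Hint3 (0.998), Ptpn18 (0.995) and Ets1 (0.995), and the closest to Lef1 were Art4 (0.995), Ing1 (0.994) and Acaa2 (0.992). Id1 was most like Dnph1 (0.969), Slc38a1 (0.969) and Phldb1 (0.948), and Id3 was most like Hdhd2 (0.942), Nrf1 (0.938) and Wfs1 (0.926). For Tcf12 they were Taf13 (0.986), Iba57 (0.977) and Nup50 (0.974), for Id2 6330403K07Rik (0.947), Niban2 (0.910) and Gxylt1 (0.910), and for Satb1 Uhrf1bp1l (0.967), Phlpp1 (0.958) and Rundc3b (0.945).

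In the order of group means Id1 had 1 step wider than the SD of the groups beside it, from het at 4 h (6.10) to KO at 0 h (4.74). Bcl11b had 2 such steps, from het at 1 h (10.92) to KO at 4 h (10.22) and from PM at 4 h (10.12) to het at 4 h (9.41). Id3 had 2 as well, from het at 4 h (6.89) to KO at 4 h (6.28) and from het at 1 h (5.33) to KO at 1 h (4.93). For Lef1 and Satb1 every neighbouring pair of groups lay within the larger SD of the pair. The genes lie at chr2:152736251-152737410 (Id1), chr12:25093799-25096092 (Id2), chr4:136143822-136145392 (Id3), chr9:71844252-72111893 (Tcf12), chr3:131110297-131224357 (Lef1), chr12:107910403-108004145 (Bcl11b) and chr17:51736187-51833290 (Satb1) in GRCm38.p6, and where the probes lie within them is not given in the sources used here.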

How the data were processed

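RNA was made into biotin-labelled cRNA and read on Illumina mouse bead arrays with GenomeStudio 2011.1, per the labels and the submitters' processing notes. The signal intensities are non-normalized linear values as deposited, and the detection p-value of each probe was deposited beside them. The authors also deposited a processed intensity table, whose scaling is not stated, with values below 0 and array medians from 3.73 to 3.81; it was used as an alternative. Background correction (normexp), quantile normalization and log2 with an offset of 16 followed (neqc, limma 3.58.1, R 4.3.3; the authors deposited no log2 values). Probes with a detection p-value under 0.01 on at least 4 arrays were kept (10961, of which 10314 carry a symbol). One linear model with 9 group means was fitted to 36 arrays (lmFit and eBayes, 27 residual degrees of freedom), for 24 comparisons, each adjusted by Benjamini-Hochberg over all tested probes. Where a probe was above background on 0 arrays of a group the fold is "at least": each dim array was given its own lowest signal above background if that was higher than the probe's signal.

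Named genes are all members, up to 3 largest called rises and falls of each list in het at 4 h, list genes called between genotypes, Malt1, and the 3 genes most like each member. The members and lists were chosen with earlier results of these data known. The replicate numbers follow the E labels of the sample titles, which link arrays over all groups. As a description, each same-numbered pair of group-centred arrays correlated over 0.1 in 13 of 18 comparisons (median r 0.468, and -0.144 between different numbers). The exceptions were 0 against 4 h in PM and KO, PM and KO against het at 0 h, and PM against KO at 4 h. The test was tried on simulated data. Alternatives changed the background correction, normalization, filter, probe choice, samples fitted, weights, variances and replicates.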

Additional observations from a re-analysis of the deposited data

Results flagged for a closer look

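The fitted 4 h change of Id1 differed from that in het by -1.44 in PM (log2, limma adjusted p = 0.00915), and for KO the fitted difference was -1.75 (adjusted p = 0.000108). Id1 was tested only because it was above background in het at 4 h, and the other groups in these differences had 0 or 1 of 4 arrays above background, so the sizes are fitted values against background and not measured changes.

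In 72 groups of 4 arrays, 8 probes by 9 groups, 4 held an array far from the other 3, where chance gives about 1 in 20. Id1 in het replicate 4 at 0 h read 4.58, not above background, where the other arrays read 4.45 to 4.46. Id2 in PM replicate 1 at 1 h read 5.32 against 6.30 to 6.34. Bcl11b in KO replicate 2 at 1 h read 11.61 against 10.85 to 10.89. Satb1 in PM replicate 4 at 4 h read 12.63 against 12.91 to 12.96.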

How the results depend on the processing

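Over the values of single probes, 4267 kept their side of the threshold under an alternative, 59 gained a call, 42 lost one and 0 reversed. A reversal was counted only where the value was called in at least 1 of the 2 fits. Values uncalled in both could change sign and still count as kept. The rise of Id1 in het at 4 h and the falls of Bcl11b at 4 h in each genotype were called under every alternative run that tested them; the fitted Id1 rise went from 1.62 to 0.45 without background correction and 0.87 with an offset of 50, and the Id3, Tcf12 and Lef1 changes shrank without correction as given above. Depth of signal limits Id1 most, which was above background on 7 arrays and was not tested under the stricter filter.

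Settings that moved the number of member probes called by more than 1.5 times were these; smaller moves, such as from 5 to 6 in het at 4 h with the replicate block or array weights, are left out. With median scaling, which moved the median of all probes by -0.30 to 0.11, it was 0 in het and in PM at 1 h, 2 in het and 1 in PM at 4 h, 0 in PM and 1 in KO from 1 to 4 h, and at 4 h 1 in PM against het, 1 in KO against het and 0 in PM against KO. Over all probes median scaling made 718, 696 and 885 calls for het, PM and KO after 1 h, where quantile normalization made 2709, 2240 and 2695, and 3544, 2899 and 2197 after 4 h, against 5626, 5119 and 4586. The split of up and down calls went from 1060 and 1180 to 255 and 441 in PM and from 1256 and 1439 to 275 and 610 in KO at 1 h, from 2269 and 2317 to 838 and 1359 in KO at 4 h, and from 2421 and 2308 to 1536 and 821 in PM and from 2266 and 2125 to 1214 and 639 in KO from 1 to 4 h. At 4 h it went from 473 and 335 to 23 and 65 in KO against het and from 109 and 121 to 27 and 9 in PM against KO. Over all probes the replicate block made 447 calls in PM against het at 4 h (235 without), 1440 in KO against het (808) and 492 in PM against KO (230). With the replicate block the number of member probes called was 4 in het and 3 in KO at 1 h, 4 in PM and 3 in KO at 4 h, and 5 in het, 5 in PM and 4 in KO from 1 to 4 h. From 0 to 4 h in PM and KO, where same-numbered pairs did not all correlate over 0.1, the replicate block gave Lef1 probe 2648475 adjusted p-values of 1.10e-06 and 9.19e-07 and probe 1239469 0.000852 and 0.00107; the block changed no other member's call in those comparisons. With array weights it was 4 in PM at 4 h, 2 in KO at 1 h and 4 in PM against het at 4 h. With only the groups compared it was 1 in PM and 2 in KO at 4 h, 5 in het and 1 in PM from 1 to 4 h, 1 in KO against het and 0 in PM against KO at 4 h, and 0 for the change of PM against het. Without background correction it was 2 in KO at 1 h. With no filter it was 1 in KO against het and 0 in PM against KO at 4 h. With the stricter filter, which drops Id1, it was 1 in PM against het, 1 in KO against het, and 0 and 0 for the changes of PM and KO against het. Without the PM arrays of replicate 4, an alternative chosen after seeing the data, it was 2 in KO at 1 h, 2 in KO at 4 h and 5 in het from 1 to 4 h. Beyond the settings whose construction drops probes or arrays, the cause was not tested.

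Without 1 array, or without replicate 4 of every group, the count ran from 1 to 3 in het at 1 h, 4 to 6 in het at 4 h, 1 to 1 in PM and 1 to 2 in KO (2 without replicate 4 of every group or KO replicate 4 at 1 h) at 1 h, 2 to 4 in PM (4 without replicate 4 of every group or PM replicate 4 at 0 h) and 1 to 2 in KO (2 without KO replicate 1 or 3 at 4 h) at 4 h, and 3 to 4, 1 to 3 and 1 to 2 from 1 to 4 h in het, PM and KO. Between genotypes at 4 h it ran from 2 to 2 in PM against het, 1 to 3 in KO against het and 0 to 1 in PM against KO.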
